A study of Arabidopsis thaliana with 12 samples.

Results

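The genes described here belong to the chloroplast thioredoxin system and to the carbon-metabolism enzymes that it switches on in light. There are 5 of them, among the 691 genes named by the 692 probes that carry 1 gene name. They were chosen by function, with earlier results of these data known. They are AT5G58330 (probe 2697), which encodes the NADP-dependent malate dehydrogenase, SBPASE (AT3G55800, probe 1517) and PRK (AT1G32060, probe 3151). The others are NTRC (AT2G41680, probe 1759) and AT2G04700 (probe 3436), annotated as a ferredoxin-thioredoxin reductase. Arrays were used to profile total RNA of Arabidopsis thaliana, wild type, ecotype Landsberg, and 12 columns of intensity values were analysed. The light group (6 columns) came from plants given 50 µM paraquat and sampled 30 min after they were put back into light. A 12 h dark period, as in the dark group, is taken to have come before. The dark group (6 columns) came from plants given 50 µM paraquat and held in darkness for 12 h. Both groups carried the herbicide, and plants without it were not analysed here, so each difference below sets light against dark under paraquat. The labels name plants but no tissue, age or number of plants pooled. Of 8 photosynthesis genes taken as markers of green tissue, the 4 with a one-gene probe (PSBW, LHB1B2, PSAN and PSBY) were above 0 in all 12 columns. The same held for 3178 of the 3409 probes tested on the whole array. Being above 0 therefore does not set these markers apart and cannot decide which tissue was sampled. Their intensities were 15.4 to 26.2 for PSBW, 9.26 to 14.8 for LHB1B2, 3.89 to 8.78 for PSAN and 0.968 to 1.31 for PSBY. Column medians were 0.559 to 0.635. The tissue was not tested.

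Thioredoxins are small proteins that reduce regulatory disulfide bonds of other enzymes. In chloroplasts, electrons from photosystem I pass through ferredoxin and ferredoxin-thioredoxin reductase to thioredoxins, which in turn activate Calvin cycle enzymes and the NADP-malate dehydrogenase. NTRC is a plastid protein that joins an NADPH-dependent thioredoxin reductase to a thioredoxin domain, and so draws on NADPH rather than on ferredoxin. The malate dehydrogenase starts the malate valve, which exports surplus reducing power from the chloroplast as malate. Paraquat accepts electrons at photosystem I and hands them to oxygen, upstream of this chain. This regulation acts on the enzymes, whereas the array measured transcripts.

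Of the 5 transcripts, the malate valve gene was lower in light and the other genes did not pass the test. The NADP-malate dehydrogenase transcript fell to 0.658 times its level in darkness, SBPASE and PRK had log2 differences of -0.13 and -0.06, NTRC had a log2 difference of 0.30 that missed the threshold, and the ferredoxin-thioredoxin reductase gene had nearly equal means. Over the whole array, 5.78% of the 3409 probes tested passed the threshold in either direction (limma, Benjamini-Hochberg adjusted p under 0.05, n = 6 per group), 3.17% lower and 2.61% higher in light. Of the 5 genes 1 passed, as lower. With the replicate number of the labels as a block, 13.1% of probes passed, 6.45% lower and 6.69% higher, and again 1 of the 5 genes. The median log2 difference of the 5 genes was -0.06, and that of all probes tested was 0.002.

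AT5G58330 had intensities between 1.50 and 1.95 in light, with a median of 1.82, against 2.42 to 2.88 in dark, with a median of 2.66. Every light column lay below every dark column, as was the case for 2.82% of all probes tested. The means were 1.79 ± 0.165 in light and 2.66 ± 0.186 in dark (SD, n = 6 each), in arbitrary units of the deposited table. On the normalised log2 scale the difference was -0.60 with an SE of 0.08 and a 95% interval from -0.78 to -0.42 (limma adjusted p = 0.00345). In these extracts fewer cells of a type and less RNA per cell cannot be told apart.

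The decrease of AT5G58330 was present in each of the same-numbered comparisons. Light over dark in deposited intensity was 0.621, 0.606, 0.711, 0.724, 0.669 and 0.709 for numbers 1 to 6. Over all probes, 10.8% were lower in light in all of the same-numbered comparisons on the normalised scale. Averaged over numbers 1 and 2, 3 and 4, and 5 and 6, the log2 differences were -0.70, -0.55 and -0.56. No set of consecutive numbers carried the difference alone. With each set averaged to 1 value, 3 a group, AT5G58330 missed the threshold (limma adjusted p = 0.397). Of the 685 one-gene probes tested, 2 had a smaller p than AT5G58330, and among the 22 called lower in light 3 had a larger decrease. By size alone, 90.8% of all probes tested had a smaller absolute difference.

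**Figure D1:**
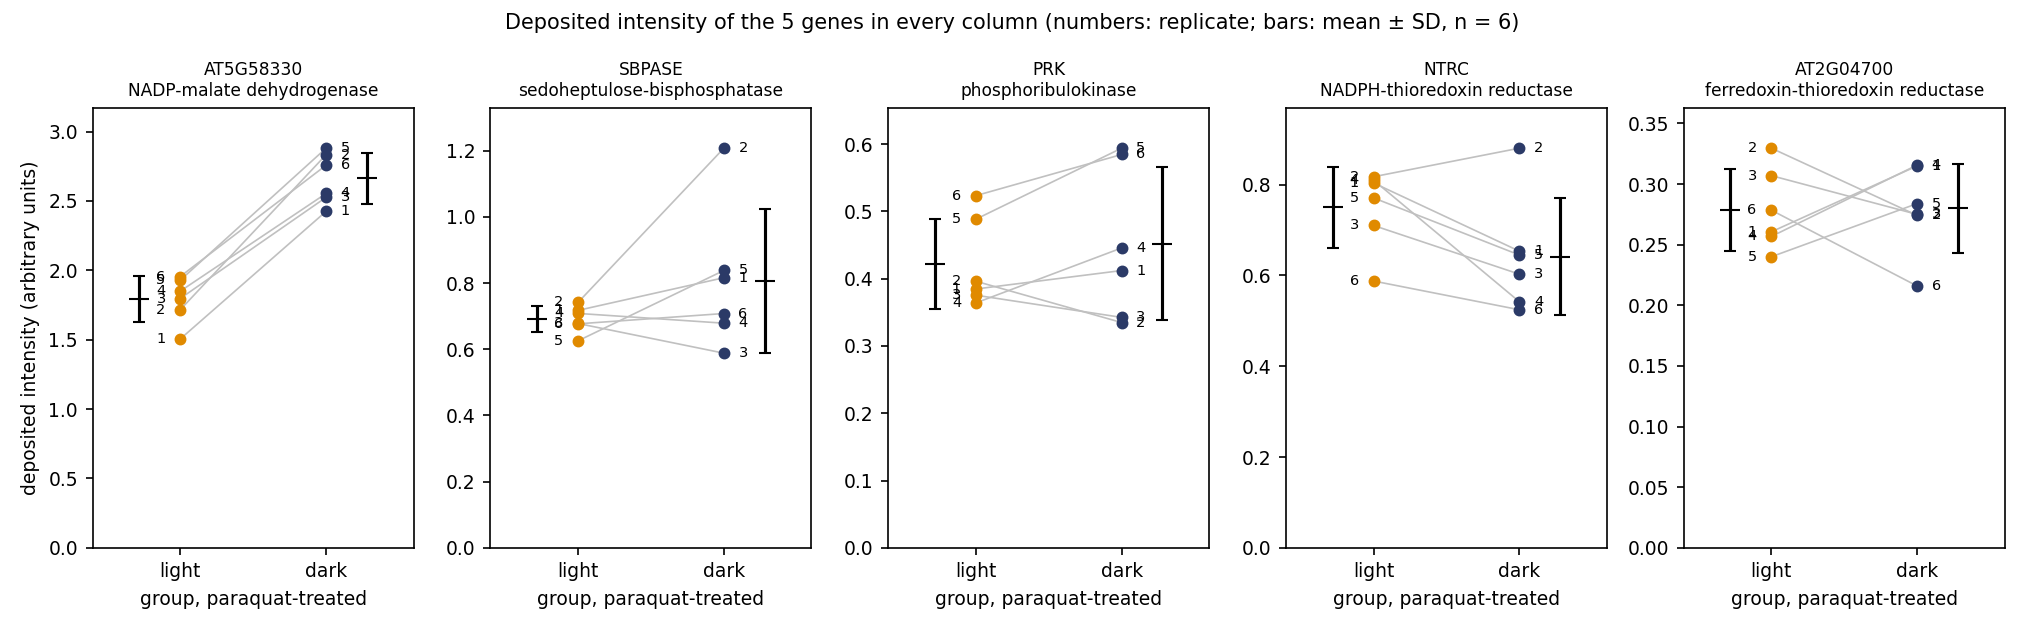
Deposited intensity (arbitrary units, linear axes from 0) of each gene in the 6 light and the 6 dark columns. Grey lines join columns of the same replicate number, and black bars give mean ± SD; AT5G58330 lies between 1.50 and 1.95 in light and between 2.42 and 2.88 in dark, while the groups of each other gene overlap.

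The Calvin cycle is represented by a pair of enzymes of the stage that regenerates the carbon dioxide acceptor. SBPASE encodes sedoheptulose-bisphosphatase, which removes a phosphate from sedoheptulose bisphosphate. Its intensity ranged from 0.626 to 0.742 in light, with a median of 0.693, against 0.588 to 1.21 in dark, with a median of 0.762. The light columns sat inside the range of the dark columns, and the dark range was widened by column 2, the highest, with the next at 0.838. Means were 0.691 ± 0.0405 in light and 0.806 ± 0.217 in dark (SD, n = 6 each). The log2 difference was -0.13 (SE 0.14, 95% interval -0.43 to 0.17, limma adjusted p = 0.681). Light was the lower member in 4 of the 6 same-numbered comparisons and the higher in 2 on both scales. Without dark column 2 the log2 difference was -0.02 (limma adjusted p = 0.966), and without dark column 3 it was -0.21, as it was with centring within runs of 96 probe numbers; without numbers 3 and 4 it was -0.26.

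PRK encodes phosphoribulokinase, which makes ribulose bisphosphate, the substrate of Rubisco. Its intensity ranged from 0.364 to 0.523 in light, with a median of 0.390, against 0.335 to 0.594 in dark, with a median of 0.429. Means were 0.422 ± 0.0667 in light and 0.452 ± 0.114 in dark (SD, n = 6 each). The log2 difference was -0.06 (SE 0.18, 95% interval -0.46 to 0.33, limma adjusted p = 0.907). Light was lower in 3 numbers and higher in 3 on the normalised scale, and lower in 4 and higher in 2 as deposited. Its columns were set apart by number. Numbers 5 and 6 gave 0.488 and 0.523 in light and 0.594 and 0.585 in dark, above the highest value of numbers 1 to 4, which was 0.396 in light and 0.446 in dark. The sign of its difference turned without dark column 5 (log2 0.03) or without dark column 6 (log2 0.02).

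With the 6 columns of a group taken as separate samples, the interval of both Calvin cycle genes lay above the -0.60 estimated for AT5G58330. It reached down to log2 -0.43 for SBPASE and -0.46 for PRK, or to -0.40 and -0.30 with the replicate block. Decreases within these bounds are not excluded. Without the block, both intervals overlapped that of AT5G58330, which ran from -0.78 to -0.42. With consecutive numbers averaged, the SE was larger, at 0.17 for SBPASE and 0.25 for PRK, so these bounds do not hold if consecutive numbers are repeats.

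The reductases supply electrons to the thioredoxin chain from different donors. NTRC had intensities from 0.588 to 0.817 in light, with a median of 0.787, against 0.524 to 0.880 in dark, with a median of 0.624. Of the dark columns, 5 lay at or below 0.653, and column 2 stood at 0.880, above every light column. Means were 0.750 ± 0.0888 in light and 0.641 ± 0.128 in dark (SD, n = 6 each). The log2 difference was 0.30 (SE 0.12, 95% interval 0.03 to 0.56). Its unadjusted p was 0.0305 and its limma adjusted p 0.188, or 0.0528 with the replicate block, so NTRC did not pass the threshold in either fit.

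NTRC was higher in light in 6 of 6 same-numbered comparisons on the normalised scale, as were 11.1% of all probes tested. On the deposited scale number 2 went the other way, with light at 0.928 times dark, and the other 5 numbers lay between 1.12 and 1.49. Without dark column 2 the log2 difference was 0.38 (limma adjusted p = 0.0697). When columns were centred within runs of 96 probe numbers, which removes a shift shared by neighbouring probe numbers, it was 0.13 (limma adjusted p = 0.569). The sources used here do not say whether probe numbers follow the array's layout.

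AT2G04700, the ferredoxin-thioredoxin reductase gene, is the link from ferredoxin to the thioredoxins. Its intensity ranged from 0.240 to 0.330 in light, with a median of 0.270, against 0.216 to 0.316 in dark, with a median of 0.279. The groups overlapped over nearly their whole range. Means were 0.279 ± 0.0337 in light and 0.280 ± 0.0366 in dark (SD, n = 6 each), and the log2 difference was 0.01 (SE 0.12, 95% interval -0.25 to 0.27, limma adjusted p = 0.982). Its sign turned with the values as deposited (log2 -0.0036), and light was lower in 3 numbers and higher in 3 on both scales. With the 6 columns of a group taken as separate samples, the interval excluded a decrease of the size estimated for AT5G58330. Changes between its bounds are not excluded.

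**Figure D2:**
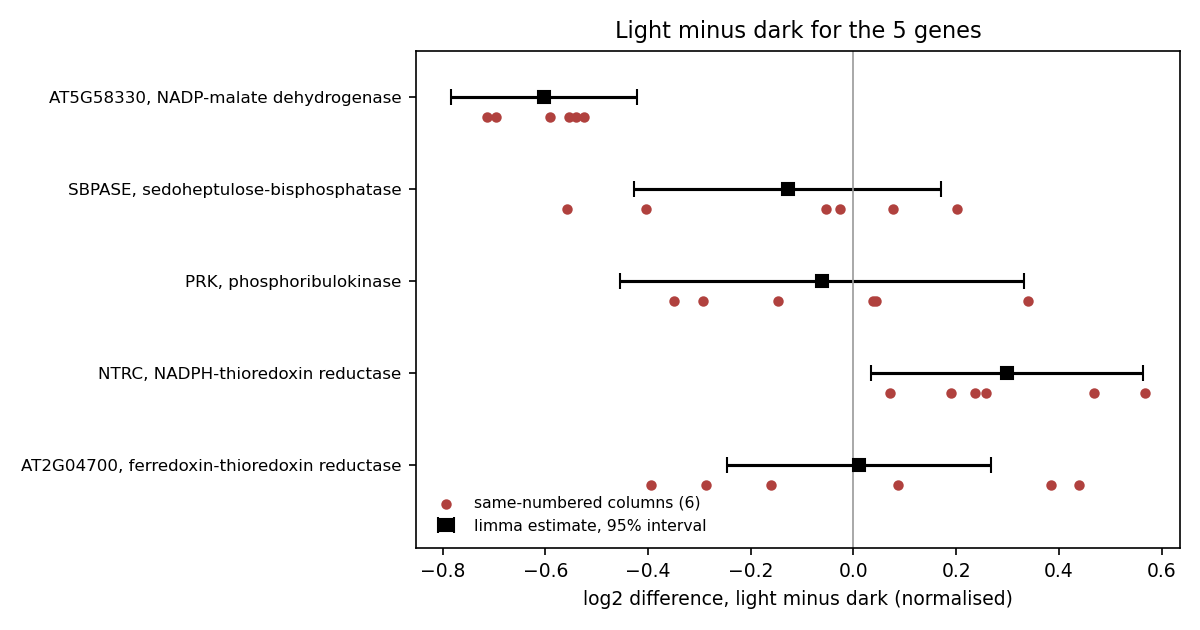
Log2 difference, light minus dark, of the 5 genes on the normalised scale (horizontal axis). Squares and bars are the limma estimate and its 95% interval, and red points are the 6 same-numbered comparisons; AT5G58330, at -0.60, is the gene whose interval lies farthest from 0, and the interval of NTRC runs from 0.03 to 0.56.

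To compare the malate valve gene with the Calvin cycle genes and the reductases directly, the log2 ratio of 2 genes was taken within each column, where any scaling of the whole column cancels. The ratios of all 10 pairs were compared between light and dark with two-sided exact permutation tests of 6 against 6 columns, whose smallest possible p is 0.00216, and adjusted over the 10 pairs. A changed ratio shows that the changes of its genes were unequal, and the levels of different probes are not compared with each other.

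Relative to both reductases the malate dehydrogenase transcript was lower in light. Its log2 ratio to NTRC was 1.26 ± 0.28 in light and 2.07 ± 0.25 in dark (SD, n = 6 each), a difference of -0.81 (exact permutation p = 0.00433, adjusted 0.0144). Its log2 ratio to AT2G04700 was 2.69 ± 0.24 in light and 3.26 ± 0.27 in dark (SD, n = 6 each), a difference of -0.57 (exact permutation p = 0.00433, adjusted 0.0144). Both ratios were lower in light in 6 of 6 numbers, by -1.05 to -0.62 for NTRC and by -0.99 to -0.17 for AT2G04700.

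The comparison with the Calvin cycle genes was less uniform. The log2 ratio of AT5G58330 to PRK was 2.09 ± 0.18 in light and 2.59 ± 0.33 in dark (SD, n = 6 each), a difference of -0.50 (exact permutation p = 0.0108, adjusted 0.0271). The ratio to SBPASE was 1.37 ± 0.20 in light and 1.76 ± 0.32 in dark (SD, n = 6 each), and its difference of -0.39 did not pass after adjustment (exact permutation p = 0.0325, adjusted 0.0649). It did pass without dark column 2, the high SBPASE column (log2 -0.49, adjusted exact permutation p = 0.0216), and without light column 5 (log2 -0.44, adjusted exact permutation p = 0.0476). With any other single column left out it missed (adjusted exact permutation p between 0.0649 and 0.139). Each of these ratios was lower in light in 6 of 6 numbers as well.

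Among the other genes, SBPASE was lower relative to NTRC. Their log2 ratio was -0.11 ± 0.17 in light and 0.31 ± 0.18 in dark (SD, n = 6 each), a difference of -0.42 with 6 of 6 numbers lower (exact permutation p = 0.00433, adjusted 0.0144). The ratio of PRK to NTRC differed by -0.31 (exact permutation p = 0.275, adjusted 0.393). The ratio of SBPASE to PRK, of each to AT2G04700 and of NTRC to AT2G04700 differed by between -0.18 and 0.24, with adjusted exact permutation p between 0.281 and 0.758. The difference within the Calvin cycle pair was -0.11, and that within the reductase pair was 0.24, with 4 of 6 numbers higher.

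When same-numbered columns were paired and signs flipped in an exact sign-flip test, whose smallest possible p is 0.0312, each of the 4 ratios with AT5G58330 and the ratio of SBPASE to NTRC had that p, and 0.0625 after adjustment over the 10 pairs. Centring within runs of 96 probe numbers lowered the ratio differences to -0.44 against NTRC, -0.35 against AT2G04700, -0.37 against PRK and -0.10 against SBPASE, with adjusted exact permutation p between 0.0794 and 0.72. Under the same centring SBPASE to NTRC was -0.33 (adjusted exact permutation p = 0.0794), and AT5G58330 on its own stayed past the threshold (log2 -0.43, limma adjusted p = 0.0241).

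**Figure D3:**
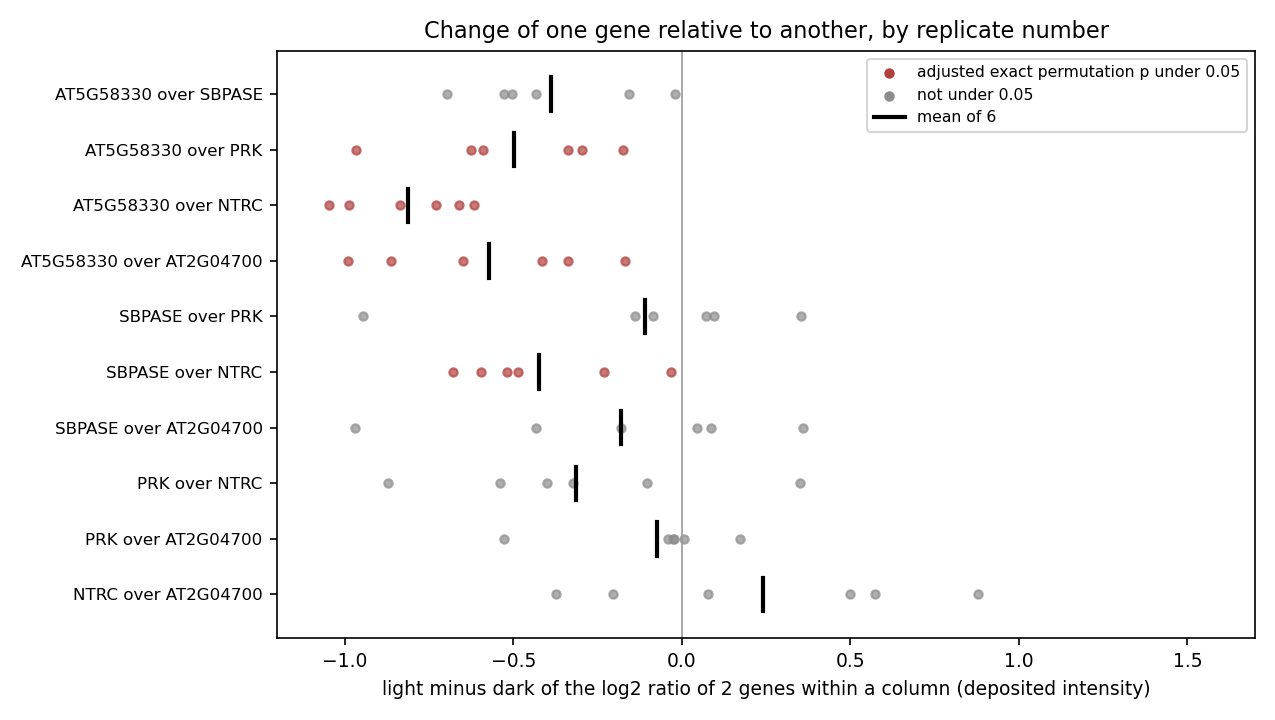
Change, light minus dark, of the log2 ratio of 2 genes within a column (horizontal axis, deposited intensity) for all 10 pairs. Points are the 6 same-numbered comparisons, black ticks their mean, and red marks pairs with an adjusted exact permutation p under 0.05; the 4 ratios with AT5G58330 have all points below 0, with means from -0.81 to -0.39.

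Within a group the 5 genes did not vary as a block. After group means were removed, the deviations of SBPASE and NTRC correlated by 0.71 over the 12 columns, and dark column 2 was the highest dark column of both. Those of AT5G58330 and PRK correlated by 0.52, and those of PRK and NTRC by -0.50. The other 7 pairs lay between -0.34 and 0.05. These correlations describe columns that share scaling and, between groups, a number, and carry no test. Same-numbered columns of light and dark deviated together for AT5G58330 (r = 0.87 over 6 numbers), PRK (0.76), NTRC (0.62) and SBPASE (0.51), and in opposite directions for AT2G04700 (-0.50). A block on the number accordingly gave AT5G58330 an SE of 0.05, against 0.08 without it, and AT2G04700 an SE of 0.13, against 0.12 without it.

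Few further genes of this system have a one-gene probe. Lists were made of thioredoxin reductases, plastid thioredoxins and thioredoxin-like proteins, plastid peroxiredoxins and Calvin cycle enzymes. Others held the malate valve and malate dehydrogenases, ferredoxins and ferredoxin-NADP reductases, and other plastid thioredoxin targets. The thioredoxin reductases and malate dehydrogenases listed were not limited to the plastid. Together the lists held 91 genes, of which 7 had a one-gene probe, including the 5 already described, and 8 occurred only on probes that name several genes. None of the 19 plastid thioredoxins and thioredoxin-like proteins and none of the 8 ferredoxins and ferredoxin-NADP reductases had one. Of the 7 measured genes, 0 were higher and 1, AT5G58330, was lower in light past the threshold, where 2.61% of all probes tested were higher and 3.17% lower. With the replicate block 0 were higher and 2 were lower, where 6.69% of all probes were higher and 6.45% lower. The median log2 difference of the 7 was -0.09.

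The second gene called with the block was AT3G52960, which encodes the plastid peroxiredoxin PRXIIE, an enzyme that reduces peroxides. Its intensity ranged from 1.23 to 1.62 in light, with a median of 1.56, against 1.52 to 1.90 in dark, with a median of 1.78. The ranges overlapped, and light was lower in 6 of 6 numbers, as it was for 10.8% of all probes tested. The log2 difference was -0.23 (SE 0.08), with a limma adjusted p of 0.122, or of 0.024 when the replicate number was a block. With centring within runs of 96 probe numbers it was -0.11 (limma adjusted p = 0.437), and with consecutive numbers averaged the limma adjusted p was 0.592. CHLM encodes the magnesium-protoporphyrin methyltransferase of chlorophyll synthesis, itself a thioredoxin target. Its intensity ranged from 0.484 to 0.861 in light, with a median of 0.695, against 0.590 to 0.930 in dark, with a median of 0.677. Its log2 difference was -0.09 (SE 0.15, limma adjusted p = 0.813). Light was lower in 3 numbers and higher in 3 on the normalised scale, and lower in 4 and higher in 2 as deposited.

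**Figure D4:**
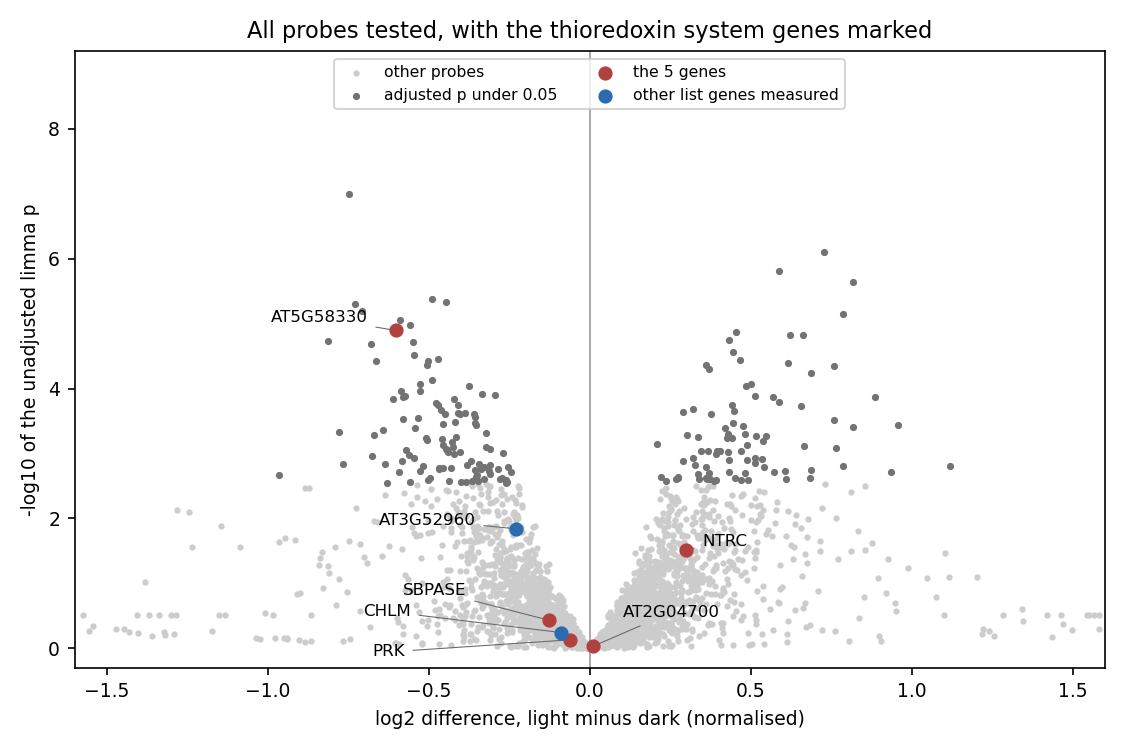
Log2 difference, light minus dark (horizontal axis), against -log10 of the unadjusted limma p (vertical axis) for all probes tested with a log2 difference within ±1.6; the other 137 probes, 1 of them past the threshold, lie outside. Red points are the 5 genes and blue points the 2 other measured genes of the lists; AT5G58330, at -0.60, is the one marked gene among the dark grey probes past the threshold.

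The one-gene probes most like each gene were found by Pearson correlation of normalised log2 values over the 12 columns, among 499 candidates that were not dim and had no zeros. For AT5G58330 these were AT2G29180 (r = 0.95), AT4G17440 (r = 0.90) and AT1G03660 (r = 0.90). Part of each r is the difference between the groups, and with group means removed the values were 0.87, 0.50 and 0.70. AT2G29180 ranged from 0.231 to 0.395 in light, with a median of 0.330, against 0.430 to 0.585 in dark, with a median of 0.535. Its groups did not overlap, and its log2 difference was -0.67 (limma adjusted p = 0.0209, or 0.102 when consecutive numbers formed a random block). AT4G17440 ranged from 0.667 to 0.869 in light, with a median of 0.742, against 0.888 to 1.17 in dark, with a median of 1.02. Its groups did not overlap either (log2 -0.41, limma adjusted p = 0.0135, or 0.0612 when consecutive numbers formed a random block). AT1G03660 ranged from 0.867 to 1.61 in light, with a median of 1.23, against 1.58 to 2.01 in dark, with a median of 1.80. Its groups overlapped only through light column 5 and dark column 2 (log2 -0.56, limma adjusted p = 0.0299, or 0.123 when consecutive numbers formed a random block). This call was also lost without light column 2, 3 or 4 or dark column 3, 4 or 5 (limma adjusted p between 0.0529 and 0.0636). These 3 genes were chosen for their likeness to a gene that was lower in light, so their own decreases are not independent of it.

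**Figure D5:**
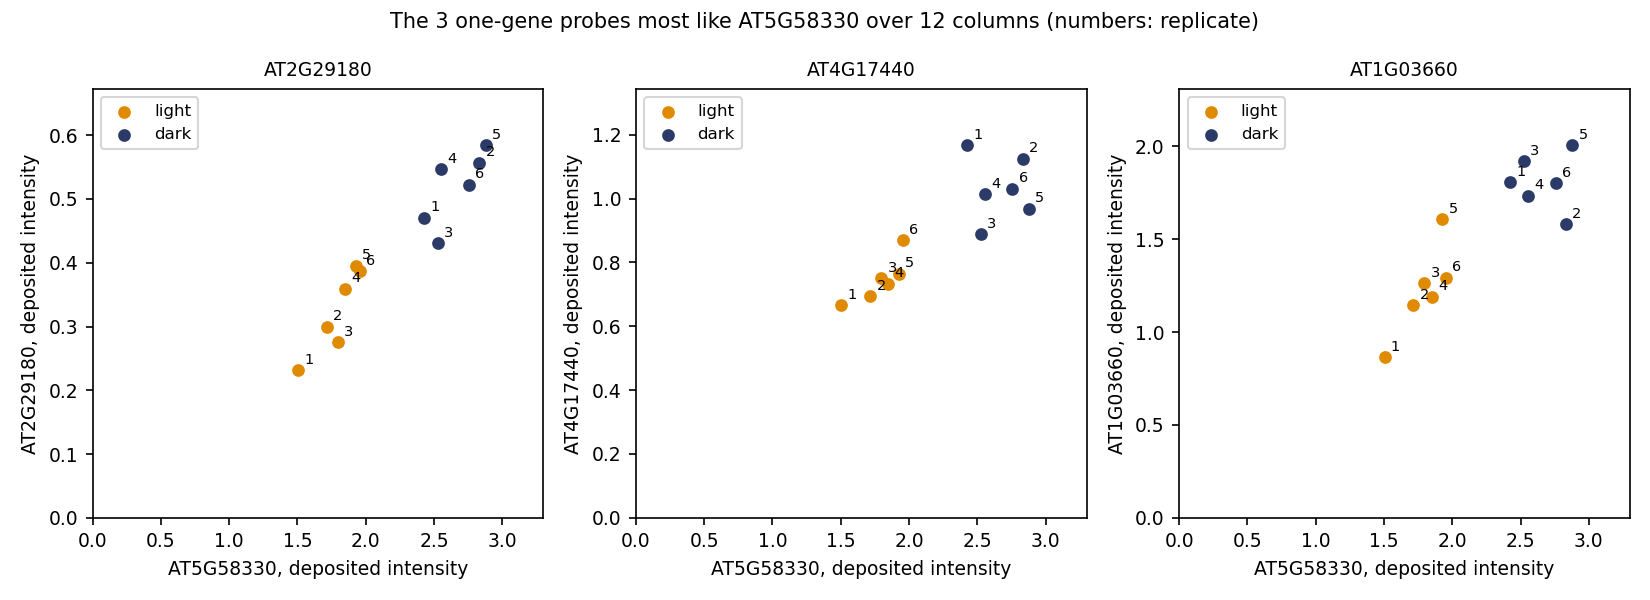
Deposited intensity of the 3 genes most like AT5G58330 (vertical axes, arbitrary units from 0) against that of AT5G58330 (horizontal axes, from 0), with each column marked by its replicate number. Light columns lie at the lower left and dark columns at the upper right of each panel, and columns with high AT5G58330 within a group tend to have high AT2G29180 (r = 0.87 with group means removed).

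The other 4 genes had different nearest profiles, none of them shared between members. For PRK they were AT1G74470, the geranylgeranyl reductase of chlorophyll and tocopherol synthesis (r = 0.88), AT4G31470 (r = 0.88) and AT3G09080 (r = 0.87), and with group means removed these became 0.88, 0.89 and 0.94. For NTRC they were AT5G23540 (r = 0.83), AT4G12740 (r = 0.82) and AT4G21170 (r = 0.81). For SBPASE they were AT2G19870 (r = 0.78), AT3G54210, which encodes a plastid ribosomal protein (r = 0.75), and AT4G09620 (r = 0.74). The closest profiles to AT2G04700 were AT1G56460, AT4G19160 and AT4G40080, with r between 0.61 and 0.65, the weakest of the 5 sets.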

How the data were processed

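The data are 1 table with 3439 probes and 12 columns, whose deposited intensity values are linear. The authors' background treatment, scaling and centring stay unknown, as the sources used here do not state them. The values held no negative value, 129 to 148 exact zeros per column and a ceiling of 100 that 11 columns reached. Column totals were 3466 to 3664 and column medians 0.559 to 0.635, and the number of columns limits the precision. Gene names came from GEO's annotation of the platform, which may be outdated: 692 carried 1 gene, 870 several and 1877 none, and 690 of the 692 matched a RefSeq locus (TAIR10.1, used for names only). Probes with several genes were not named.

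Columns were quantile-normalised with zeros kept at 0 and transformed as log2(value + 2.53e-05), the lowest positive value, so folds are on this scale whereas means ± SD are deposited intensities. After 30 probes at 0 throughout were left out, 3409 were fitted with limma 3.58.1 in R 4.3.3 (lmFit, eBayes, two-sided, Benjamini-Hochberg, threshold 0.05). The procedure was also run on simulated data whose replicate numbers and probes were independent of each other. Those data do not cover links between consecutive numbers or between neighbouring probe numbers. Python 3.11.15 with matplotlib 3.10.9 drew the figures.

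The 5 genes and the lists were chosen with earlier results of these data known. Named genes were the 5, every list gene with a one-gene probe, and for each of the 5 the 3 one-gene probes most like it, above the lower quartile of mean intensity (0.330) and without zeros.

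The labels do not say whether the columns of a group are separate plants, so p-values measure the spread between columns, which may be technical. Nor do they say whether consecutive numbers (1 and 2, 3 and 4, 5 and 6) are repeats of 1 sample. If they are, n = 6 overstates the number of samples. Light column medians in these sets were 0.562 and 0.559, 0.594 and 0.595, and 0.565 and 0.566. Those of dark were 0.635 and 0.621, 0.583 and 0.577, and 0.563 and 0.579. Deviations from the group mean correlated by 0.66 to 0.786 between same-numbered columns of light and dark (2554 probes, 6 numbers), and all 12 columns were matched best by their own number, so by the values the numbers pair the columns. The sources used here do not say what a number marks. Alternatives covered scaling, offset, filters, blocks, averaging, columns left out, runs of probe numbers and exact tests.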

Additional observations from a re-analysis of the deposited data

Results flagged for a closer look

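NTRC stood at 0.880 in dark column 2, against 0.524 to 0.653 in the other 5 dark columns, a gap too wide for 6 values by Dixon's test. This was 1 of 14 groups of 6 values tested over the 7 measured genes, where chance gives about 0.7. SBPASE was also highest in that column, at 1.21.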

How the results depend on the processing

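AT5G58330 was lower in light in all 29 alternatives, with log2 differences from -0.64 to -0.43. It missed the threshold with consecutive numbers averaged to 3 columns a group (log2 -0.60, limma adjusted p = 0.397). It also missed it without numbers 3 and 4 (log2 -0.63, limma adjusted p = 0.0933). Fewer columns remain in both settings, but 3 a group is the number of samples if consecutive numbers are repeats of 1 sample. These readings cannot be told apart here. By the exact permutation test for every probe, whose smallest possible p is 0.00216, it missed as well (log2 -0.60, adjusted 0.0505). AT5G58330 passed with the replicate block (limma adjusted p = 0.008) and when consecutive numbers formed a random block (0.0174). The replicate block changed no call among the 5 genes and raised the count of called probes from 197 to 448. The count was 43 with consecutive numbers as a random block, 131 with centring within runs, 0 with consecutive numbers averaged (limma, 335 at an unadjusted p under 0.05) and 0 by the exact permutation test (691 at an unadjusted p under 0.05). It was 73 without numbers 1 and 2, 0 without numbers 3 and 4 (limma, 465 at an unadjusted p under 0.05), 113 without numbers 5 and 6, and 107 to 174 with 1 column left out, moving by more than 1.5 times without light column 1, 2, 3, 4 or 6 or dark column 2 or 4.

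SBPASE and NTRC kept their direction and did not pass in any of 29 alternatives. Differences near 0 changed sign. PRK was at 0.0417 with centring within runs, at 0.0178 without numbers 5 and 6, and at -0.15 to 0.0346 with 1 column left out. AT2G04700 was at -0.0036 as deposited, -0.0186 with centring within runs, -0.0172 with array weights, -0.0529 without numbers 1 and 2, -0.0074 without numbers 5 and 6, and -0.0611 to 0.0604 with 1 column left out. It is too dim for the fit without dim probes. CHLM was at 0.0210 without numbers 5 and 6, and at -0.17 to 0.0022 with 1 column left out.

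The ratio of AT5G58330 to SBPASE passed with quantile-normalised values (log2 -0.48, adjusted exact permutation p = 0.0346), and with 1 column left out it lay between -0.49 and -0.32. It missed without numbers 1 and 2 (log2 -0.45, adjusted exact permutation p = 0.0952), without 3 and 4 (-0.28, 0.333) and without 5 and 6 (-0.44, 0.171). The ratios of AT5G58330 to PRK, NTRC and AT2G04700 kept their direction in all 19 alternatives each. They missed the threshold in the replicate block's exact sign-flip test (-0.50, -0.81 and -0.57) and with centring within runs (-0.37, -0.44 and -0.35). In the sign-flip test each already had the smallest possible p, 0.0312. That miss was set by the adjustment over the 10 pairs, so the sign-flip test cannot decide the call. With consecutive numbers averaged the differences are the same, and 3 against 3 columns cannot give an exact permutation p below 0.1, so no ratio could pass. Those to NTRC and AT2G04700 were at that floor, whereas the ratio to PRK had an unadjusted exact permutation p of 0.2. All 3 also missed it without numbers 1 and 2 (-0.36, -0.82 and -0.50) or 3 and 4 (-0.55, -0.78 and -0.65). The same held without 5 and 6 (-0.59, -0.84 and -0.56). With 4 columns a group the smallest possible p is 0.0286 before adjustment. The ratio to PRK lay above it without 1 and 2 (exact permutation p = 0.143). Those to NTRC and AT2G04700 did so without 3 and 4 (both 0.0571). Otherwise p was at this floor. The ratio of SBPASE to NTRC missed the threshold in the same settings (log2 -0.36, -0.50 and -0.41 without these pairs of numbers). The cause of the change with centring was not tested. The ratio of PRK to AT2G04700 was at 0.0233 with centring within runs, 0.0327 without numbers 5 and 6, and -0.16 to 0.0816 with 1 column left out. That of SBPASE to PRK was at 0.0951 without numbers 1 and 2, and -0.22 to 0.0948 with 1 column left out.

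The decreases of AT2G29180, AT4G17440 and AT1G03660 kept their direction in all 29 alternatives each, and 24, 24 and 17 of these left the call. Besides the random block, it was lost for each with consecutive numbers averaged (limma adjusted p between 0.414 and 0.422), by the exact permutation test (0.0505, 0.0656 and 0.0656), without numbers 1 and 2 (0.106, 0.126 and 0.0722) and without numbers 3 and 4 (0.194, 0.126 and 0.274), and for AT1G03660 without numbers 5 and 6 (0.0502).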
